A study of Mus musculus with 6 samples.

Results

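Immediate early genes were followed in regenerating mouse muscle: Fos, Fosb, Jun, Junb, Atf3, Egr1, Nr4a1, Myc, Ier2 and Dusp1. They were chosen by name, as 10 classic members of this class, with earlier results of these data known. Each was found among the 52369 genes of the deposited table of FPKM (fragments counted in a gene, divided by its length and by the depth of the library). All 10 passed the filter on low values, a mean of 1 FPKM or more, which left 14788 genes to test. The samples were tibialis anterior muscles of C57BL/6 mice aged 6 weeks at labelling. At 5 weeks every muscle had received 50 µl of 10 µM cardiotoxin (CTX), a snake toxin that kills fibres and sets off regeneration. Every muscle was also injected with 6.25 µg of pcDNA3.1 plasmid in a transfection reagent on several days, and muscle was harvested on day 7. The 3 Control libraries carry the genotype label control, and the 3 L7 libraries carry the label Linc-smad7 overexpression, a gain of function of a long non-coding RNA. The delivery was into whole muscle, so which cells took up plasmid is not known from the labels. Nor do they say whether each library came from a separate animal, so the p-values measure the spread between these libraries, part of which may be technical. Reads of Y-linked genes put both sexes in each group, so each holds at least 2 animals.

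Immediate early genes are switched on within minutes of a stimulus, before any new protein is needed, because the factors that drive them (SRF with its ETS partners, and CREB) are already on the DNA and are activated by kinases. Their mRNAs are short-lived, and many of their products are transcription factors that start a second wave of genes. In muscle they are known to respond to contraction, injury, growth factors and the handling of tissue. Fos and Jun proteins pair to form the factor AP-1, Egr1 and Nr4a1 are zinc finger factors, Atf3 is a stress-induced relative of the AP-1 proteins, Myc drives growth, and Dusp1 is a phosphatase that shuts the kinases off again.

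Promoter sequences were matched for 7 of the 10 genes (all but Egr1, Ier2 and Myc) in RefSeq (GRCm38.p6, the mm10 build). They span 250 bases before to 50 bases after the start site, searched on both strands. The core of the CREB site, TGACG, was the letter string that most of them shared, and was singled out after the matches were seen. It lay in 6 of 7 promoters (Fos, Fosb, Junb, Atf3, Nr4a1 and Dusp1), against 20.91% of 32544 promoters of this length. The windows below are shown because they hold this shared core. Capitals mark TGACG, or CGTCA where the core lies on the other strand, and all are written 5′ to 3′ on the strand of the gene. Their positions are chr12:85473812-85473841 for Fos (plus strand), chr7:19310088-19310117 for Fosb (minus), chr8:84978837-84978866 for Junb (minus), chr1:191183323-191183352 for Atf3 (minus), chr15:101266794-101266823 for Nr4a1 (plus) and chr17:26508598-26508627 for Dusp1 (minus).
Fos: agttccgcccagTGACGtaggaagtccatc
Fosb: tggagttgcgggTGACGcaagcgcgggggc
Junb: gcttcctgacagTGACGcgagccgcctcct
Atf3: ttaatagcattaCGTCAgcctgggattggt
Nr4a1: cccctctccatgCGTCAcggagcgcttaag
Dusp1: cggtagggcgggTGACGtcaccgcccggtc
Nr4a1 held the core at 4 places, all on the other strand, with first bases at -233, -213, -69 and -40 from the start site. Fos held it at -129 and -66, and Dusp1 at -191 and -143 and, on the other strand, at -140. A single window per gene is shown. In that of Dusp1 the overlapping copy at -140 is not marked in capitals. The full palindrome TGACGTCA, which contains the core, was found in Dusp1 alone among the 7, against 1.8% of all promoters. The EGR-type site GCGNGGGCG lay in Fosb and Nr4a1, against 5.6% of all promoters. It starts at -50 in Fosb and at -60 in Nr4a1, and the next windows show it in capitals, on the other strand in Nr4a1.
Fosb: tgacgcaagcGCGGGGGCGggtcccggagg
Nr4a1: gcgtcagtggCGCCCCCGCccctctccatg
These lie at chr7:19310076-19310105 (minus) and chr15:101266776-101266805 (plus). The TATA sequence TATAAA was found in Fos and Junb, against 13.57% of all promoters. It starts at -33 in Fos, but at position 1 in Junb, on the annotated start site itself. The AP-1 site TGANTCA, against 7.79%, and the CArG box bound by SRF, against 1.64%, were in none of the 7 windows. Bases further from the start site were not searched, so this absence holds for these windows only. These are matches of letters and no measure of binding.

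The mRNAs were also searched for AU-rich elements, the 3′ UTR sequences known to mark short-lived transcripts for decay. The annotated 3′ UTR (the longest of each gene) held the pentamer ATTTA 5.80 times per kilobase in Dusp1, 5.53 in Nr4a1, 4.91 in Fos, 4.29 in Myc, 4.12 in Junb and 3.24 in Jun, where the median of 12720 tested genes with a 3′ UTR was 1.28. Fosb, with 0.434, lay below that median and Ier2 had none. The stricter nonamer TTATTTATT contains the pentamer and was found in Fos and Dusp1, against 7.99% of tested genes over whole 3′ UTRs of any length. In the first 500 bases, 1 of 8 members with that length held it (Dusp1), against 2.46% of 9545 genes. The pentamer was in that stretch of 3 of the 8, against 47.09% of those genes. The site of Fos lies at chr12:85477103-85477132 (plus) and those of Dusp1 at chr17:26506158-26506187 and chr17:26505869-26505898 (minus). They are shown with the nonamer in capitals.
Fos: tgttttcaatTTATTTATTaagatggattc
Dusp1, first site: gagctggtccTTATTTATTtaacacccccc
Dusp1, second site: gtttttacctTTATTTATTtttgtgtaggt

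Reads in genes numbered 19420012 to 24663153 per library, and all 10 genes had at least 45 reads in each. L7 replicate 3 stood apart: its correlation over tested genes was 0.920 to 0.951 with the others, against 0.979 to 0.989 among those. Its median tested gene was low on the deposited scale (a deviation of -0.33 from the gene's 6-library mean in log2), and median of ratios scaling, which sets the typical gene equal between libraries, gave it a factor of 0.774 against 1.03 to 1.10 elsewhere. The 8 adult fast fibre markers were all present, so the muscle label holds, and their summed FPKM was 19691 to 27478 in Control and 29988, 32293 and 87672 in L7 replicates 1, 2 and 3. Y-linked reads put Control replicates 1 and 3 and L7 replicate 1 as male and the others as female. No gene in the annotation is named Linc-smad7, so its level was not used to check the labels. Because of L7 replicate 3, many values are also given after median of ratios scaling or without that library.

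The 10 genes did not move as a group. Nr4a1 and Fosb were higher in every L7 library than in any Control library, Atf3 and Myc were lower in every L7 library than in any Control library, and the other 6 had overlapping groups. By limma, a linear model over all genes with adjustment for their number, no member had an adjusted p below the threshold of 0.05, and neither did any other gene (0 of 14788, 0%). The count was also 0 with voom on the reads. At an unadjusted p under 0.05, limma had 1 member higher (Nr4a1), where all genes gave 1.65%, and 2 lower (Atf3 and Myc), where all genes gave 4.25%. The sexes were uneven between the groups. With sex as a covariate the differences were 0.75 for Nr4a1, -0.53 for Atf3 and -0.48 for Myc. The unadjusted limma p was then 0.0476, 0.0764 and 0.0711, so Atf3 and Myc no longer fell under 0.05. Groups without overlap were seen with L7 higher in 2 of 10 members, against 5.49% of genes tested, and with L7 lower in 2 of 10, against 13.7%. A single member is 10% of this set, so these shares are coarse. After median of ratios scaling the same 4 genes had no overlap in the same directions, with 9.41% of genes tested in the higher and 8.87% in the lower direction. The median log2 difference of the members was -0.09, beside -0.15 for all genes tested, and after scaling it was 0.07 beside -0.0029. In bulk muscle, fewer cells of a type and less RNA per cell cannot be told apart.

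**Figure D1:**
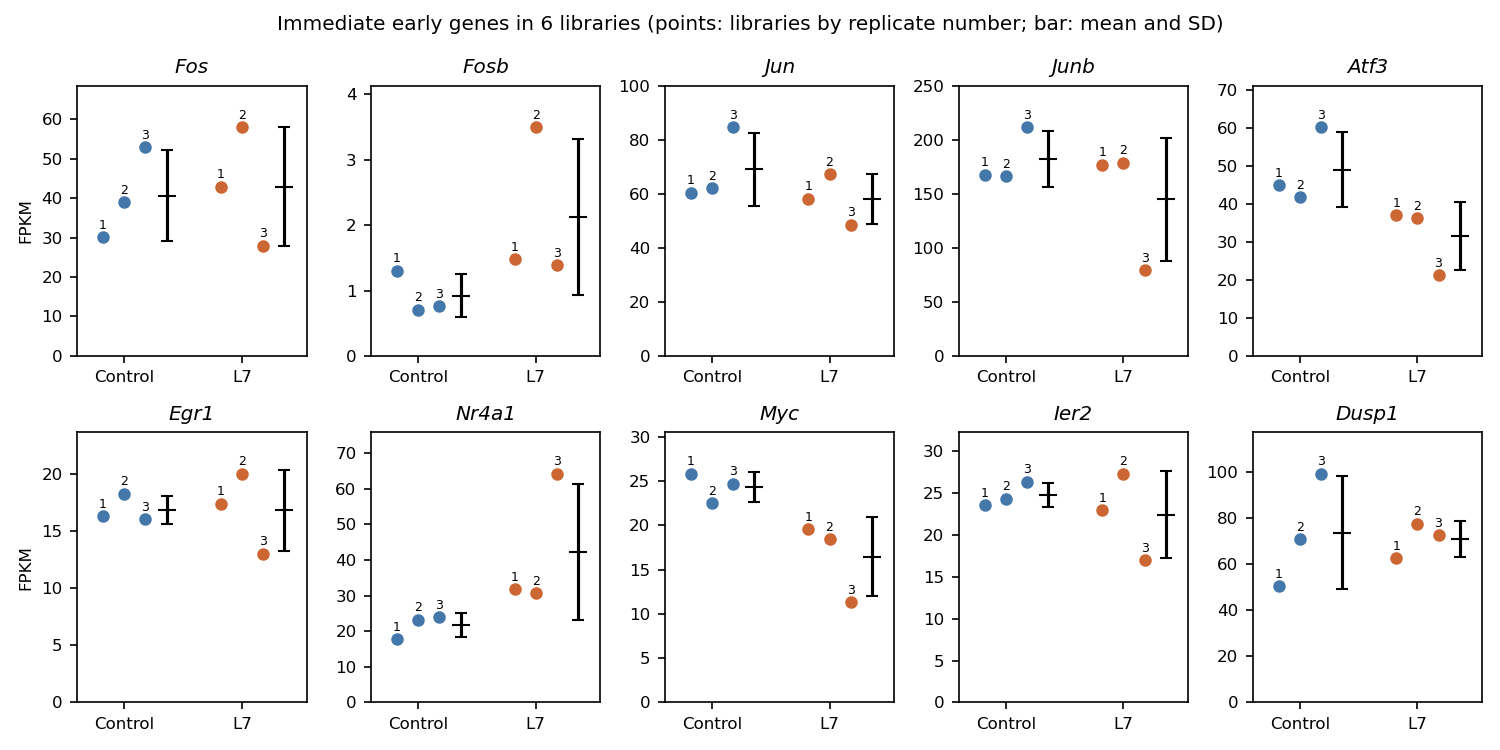
FPKM of each immediate early gene in the 6 libraries, Control in blue and L7 in orange, with replicate numbers above the points and the mean ± SD (n = 3) as a black bar; each vertical axis starts at 0. The L7 points of Nr4a1 and Fosb lie above, and those of Atf3 and Myc below, all Control points, and in 7 genes the lowest point is L7 replicate 3.

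Nr4a1 (ENSMUSG00000023034, chromosome 15 from 101254269 to 101274795, mm10), also called Nur77, encodes an orphan nuclear receptor that is known to be made in fast fibres and to be induced there by adrenergic signals and exercise. It was at 17.8, 23.2 and 24.0 FPKM in Control and at 31.8, 30.7 and 64.2 FPKM in L7 replicates 1, 2 and 3. The L7 libraries lay above every Control library, and L7 replicate 3 held about as much as the other two together. The means were 21.7 ± 3.35 FPKM (SD, n = 3) and 42.3 ± 19.0 FPKM (SD, n = 3), a 1.95-fold ratio, which was 1.44-fold without L7 replicate 3. The log2 difference on the log2(FPKM + 1) scale, which is used for every difference here, was 0.86 ± 0.29 (SE), with a limma p of 0.0208 unadjusted and an adjusted p of 0.580. Without L7 replicate 3 it was 0.52 (unadjusted limma p 0.00977, adjusted 0.733). The difference was positive in 17 of 17 fits, between 0.52 and 1.04, and the adjusted limma p ranged from 0.247 to 0.873 over them. These fits reuse the same libraries and are not independent checks. Where groups do not overlap, leaving out any library cannot turn the sign. In the authors' deposited table it was 2.33-fold higher with a p of 0.153 and an adjusted p of 1. The summed FPKM of the adult fast fibre markers, given above, had the same order of groups, with L7 replicate 3 highest. Taken singly, 4 of the 8 markers had every L7 library above Control on the deposited scale, and the rest overlapped. Pvalb, for example, was at 872 FPKM in L7 replicate 1 and 1208 FPKM in Control replicate 2. The part of these markers in the Nr4a1 values was not tested.

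Fosb (ENSMUSG00000003545, chromosome 7 from 19302696 to 19310051) encodes a Fos relative that accumulates under repeated stimulation, and it was the least abundant of the 10. It was at 1.30, 0.709 and 0.756 FPKM in Control and at 1.48, 3.497 and 1.39 FPKM in L7 libraries. The groups were close together, Control replicate 1 lying just under L7 replicates 1 and 3, and L7 replicate 2 standing well above the rest. These levels rest on 89, 45 and 61 reads in Control and 107, 237 and 96 in L7. The exact 95% Poisson interval, which covers counting error only, was 1.05 to 1.60 FPKM in Control replicate 1 and 1.122 to 1.69 FPKM in L7 replicate 3, so those libraries were not told apart at this depth. The means were 0.922 ± 0.330 (SD, n = 3) and 2.12 ± 1.19 FPKM (SD, n = 3), a 2.30-fold ratio. The log2 difference was 0.65 ± 0.28 (SE), with a limma p of 0.0537 unadjusted and an adjusted p of 0.580. Without L7 replicate 2 it was 0.35 (unadjusted limma p 0.163, adjusted 0.473). The added 1 FPKM shrinks it, and with 0.1 added it was 1.04. In the authors' deposited table Fosb was 2.55-fold higher with a p of 0.0276 and was marked as significant there, though its adjusted p was 1. It was the only member so marked, 1 of 10, where that table had an unadjusted p under 0.05 for 1.13% of genes with a p.

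Fos (ENSMUSG00000021250, chromosome 12 from 85473890 to 85477273), the founding member of the class, showed no separation of the groups. It was at 30.1, 39.0 and 52.9 FPKM in Control and at 42.9, 58.0 and 27.9 FPKM in L7 libraries. Both the highest and the lowest value fell in L7 libraries. The log2 difference was 0.05 ± 0.30 (SE) with a limma adjusted p of 0.929. It turned to -0.14 without Control replicate 1 and to -0.19 without L7 replicate 2, and was 0.36 with scaling and without L7 replicate 3. With fit weights that count a deviating library less, Fos had 0.48 and a limma p of 0.0424 unadjusted, adjusted 0.370.

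Jun and Junb, the AP-1 partners, had overlapping groups. Jun (ENSMUSG00000052684, chromosome 4 from 95049034 to 95052222) was at 60.5, 62.1 and 84.8 FPKM in Control and at 58.3, 67.2 and 48.6 FPKM in L7. Its log2 difference was -0.24 ± 0.19 (SE) with a limma adjusted p of 0.585, and it was -0.07 after median of ratios scaling. Control replicate 3 stood above all other libraries. Junb (ENSMUSG00000052837, chromosome 8 from 84974484 to 84978718), which often restrains Jun, was at 168, 167 and 212 FPKM in Control and at 177, 179 and 79.5 FPKM in L7. L7 replicate 3 stood far below every other library, and the remaining L7 libraries lay within the Control range. For Junb the log2 difference came to -0.41 ± 0.32 (SE; limma adjusted p 0.585). It was -0.02 without L7 replicate 3 and 0.0085 without it after scaling. After scaling, L7 replicate 3 was still the lowest for Junb, at 103 against 153 to 206. Jun overlaps the antisense gene Junos (6.78 to 11.0 FPKM) and Junb overlaps Prdx2 on the opposite strand (133 to 152 FPKM), and no source at hand says whether counting used the strand, so reads in the shared stretches cannot be told apart.

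Atf3 (ENSMUSG00000026628, chromosome 1 from 191170296 to 191218039) encodes a factor that dampens inflammatory genes and is induced by amino acid and other stress. It was at 45.0, 41.8 and 60.3 FPKM in Control and at 37.0, 36.2 and 21.2 FPKM in L7 libraries. Every L7 library lay below every Control library, with Control replicate 3 and L7 replicate 3 at the ends. The means were 49.0 ± 9.86 and 31.5 ± 8.92 FPKM (SD, n = 3 each), so Control was 1.56-fold above L7 and 1.34-fold above it without L7 replicate 3. The log2 difference was -0.65 ± 0.25 (SE), with a limma p of 0.0352 unadjusted and an adjusted p of 0.580. It was negative in 17 of 17 fits, which reuse the same libraries and are not independent, between -0.78 and -0.34, with adjusted limma p from 0.333 to 0.873. In the authors' deposited table Control was 1.42-fold above L7 with a p of 0.0906 and an adjusted p of 1.

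Myc (ENSMUSG00000022346, chromosome 15 from 61985391 to 61990374), the growth regulator that pairs with Max, was at 25.8, 22.5 and 24.7 FPKM in Control and at 19.6, 18.4 and 11.3 FPKM in L7 libraries. The Control libraries were close together and the L7 libraries all lay below them. The means were 24.4 ± 1.69 and 16.4 ± 4.45 FPKM (SD, n = 3 each), with Control 1.48-fold above L7 and 1.28-fold above it without L7 replicate 3. The log2 difference was -0.57 ± 0.22 (SE), with a limma p of 0.0308 unadjusted and an adjusted p of 0.580. It was negative in 17 of 17 fits, again not independent of each other, between -0.71 and -0.31, with adjusted limma p from 0.274 to 0.873. In the authors' deposited table Control was 1.34-fold above L7 with a p of 0.171 and an adjusted p of 1. The summed FPKM of the 4 myoblast markers (Pax7, Myf5, Myod1 and Myog) was 201 to 263 in Control and 227, 229 and 109 in L7, with L7 replicate 3 again lowest, and their part in the Myc values was not tested.

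Egr1, Ier2 and Dusp1 had overlapping groups and small differences. Egr1 (ENSMUSG00000038418, chromosome 18 from 34859823 to 34864984), a zinc finger factor that also drives matrix genes, was at 16.3, 18.3 and 16.0 FPKM in Control and at 17.4, 20.0 and 13.0 FPKM in L7. Its log2 difference was -0.02 ± 0.18 (SE), with a limma adjusted p of 0.951. L7 libraries held both ends of the range. Ier2 (ENSMUSG00000053560, chromosome 8 from 84661331 to 84662852), a nuclear protein of less known function, was at 23.5, 24.3 and 26.3 FPKM in Control and at 22.9, 27.3 and 17.0 FPKM in L7, and its log2 difference was -0.16 ± 0.19 (SE; limma adjusted p 0.673). Dusp1 (ENSMUSG00000024190, chromosome 17 from 26505590 to 26562128), the phosphatase of MAP kinases, was at 50.5, 71.1 and 99.4 FPKM in Control and at 62.6, 77.7 and 72.6 FPKM in L7. All 3 L7 values lay inside the Control range, and the log2 difference was -0.01 ± 0.25 (SE) with a limma adjusted p of 0.992. Dusp1 overlaps Ergic1 on the opposite strand (49.8 to 80.0 FPKM), with the same limit. The sign of all 3 turned after median of ratios scaling, to 0.14 for Egr1, 0.0070 for Ier2 and 0.17 for Dusp1.

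**Figure D2:**
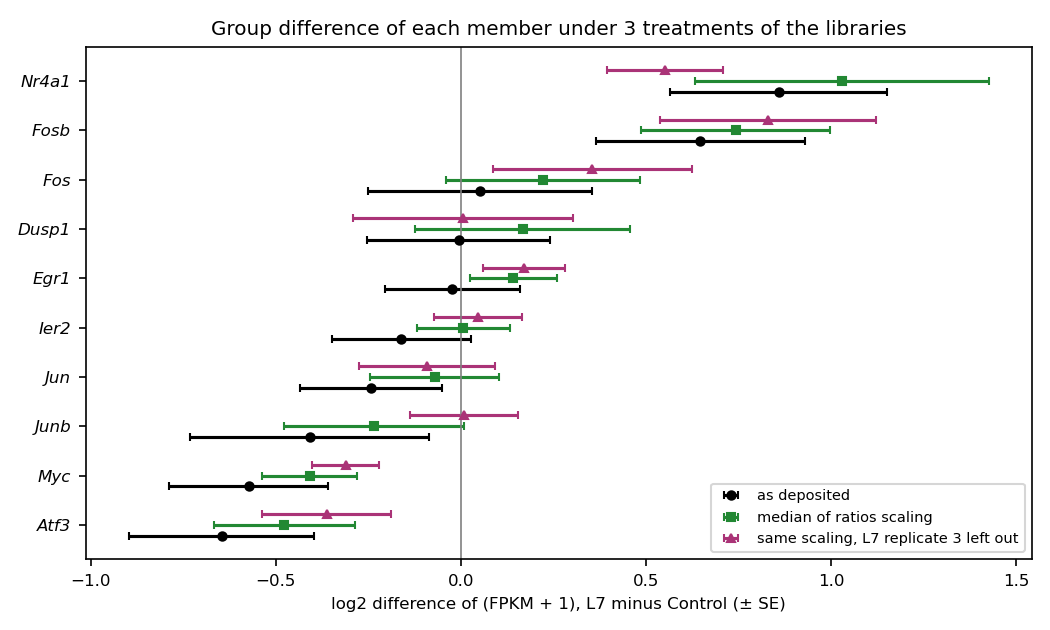
Log2 difference of FPKM + 1 (L7 minus Control) with its SE for each gene, on the deposited scale (black), after median of ratios scaling (green) and with the same scaling and L7 replicate 3 left out (purple). Nr4a1 and Fosb stay right of 0 and Atf3 and Myc left of 0 under all 3, while Egr1, Ier2 and Dusp1 lie near 0 and cross it.

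Ratios between members within a library do not depend on how libraries are scaled. The 7 pairs were picked after the values had been seen, so they are a description, and the groups separated in 3 of them. Nr4a1 over Egr1 was 1.09, 1.27 and 1.495 in Control and 1.83, 1.54 and 4.94 in L7, with every L7 library above. Myc over Egr1 was 1.59, 1.23 and 1.54 in Control and 1.124, 0.920 and 0.871 in L7, with every L7 library below. Atf3 over Jun was 0.744, 0.674 and 0.711 in Control and 0.635, 0.539 and 0.436 in L7, again with every L7 library below. Fosb over Fos was 0.0433, 0.0181 and 0.0143 in Control and 0.0344, 0.0603 and 0.0496 in L7, and here the groups overlapped because of Control replicate 1. They also overlapped for Fos over Jun (0.584 ± 0.0748 against 0.724 ± 0.145), Junb over Jun (2.66 ± 0.142 against 2.45 ± 0.727) and Dusp1 over Egr1 (4.398 ± 1.61 against 4.35 ± 1.07; SD, n = 3 each).

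By level, corrected for gene length, Junb was the most abundant, at 164 ± 44.5 FPKM over all libraries (SD, n = 6), and lay above the next gene, Dusp1, in 6 of 6 libraries. Dusp1 (72.3 ± 16.3) lay above Jun (63.6 ± 12.05) in 5 of 6, and Jun lay above Fos (41.8 ± 12.1) in all 6. Fos and Atf3 (40.3 ± 12.8) could not be ordered, with Fos above in 3 of 6 libraries, nor could Nr4a1 (32.0 ± 16.6) and Ier2 (23.6 ± 3.63), with 3 of 6. Ier2 lay above Myc (20.4 ± 5.28) in 5 of 6, and Myc above Egr1 (16.8 ± 2.37) in 4 of 6. Atf3 lay above Nr4a1 in 5 of 6, the exception being L7 replicate 3, where Nr4a1 was the third most abundant member. The ranges of neighbours in this order overlapped everywhere except between Egr1 and Fosb (1.52 ± 1.02), which was lowest in all 6.

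Between libraries, several members varied more than a typical gene. The SD within groups on the log2(FPKM + 1) scale was above the median of all genes tested (0.25) in 7 of 10 members. It was largest in Junb (0.49, above 88.8% of genes tested), Fos (0.46, above 86.3%) and Nr4a1 (0.44, above 84.4%) and smallest in Egr1 (0.22, above 40.6%). The median SD of the members was 0.36 with L7 replicate 3 and 0.20 without it. Among the remaining 5 libraries, Dusp1 (0.41, above 93.9% of genes tested), Fosb (0.40, above 93.4%) and Fos (0.37, above 91.7%) varied most, and Myc (0.09, above 22.7%) varied little. The highest of the 6 libraries was between 1.54 times (Egr1) and 4.93 times (Fosb) the lowest.

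Library by library, Control replicate 3 and L7 replicate 2 were high and L7 replicate 3 was low. Control replicate 3 was the highest library for Jun, Junb, Atf3 and Dusp1, and L7 replicate 2 was the highest for Fos, Fosb, Egr1 and Ier2. L7 replicate 3 was the lowest library for 7 members and the highest for Nr4a1. The median deviation of the members from their own 6-library means was 0.35 in Control replicate 3, where the median of all genes tested was 0.04, and -0.40 in L7 replicate 3, where that of all genes was -0.33. After scaling, L7 replicate 3 was the lowest for 3 members (Junb, Atf3 and Myc) and Control replicate 1 for 6. The summed FPKM of the 6 macrophage markers was 3295 in Control replicate 3, against 2591 and 2331 in the other Control libraries and 3584, 2858 and 1658 in L7, and their part in this pattern was not tested.

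**Figure D3:**
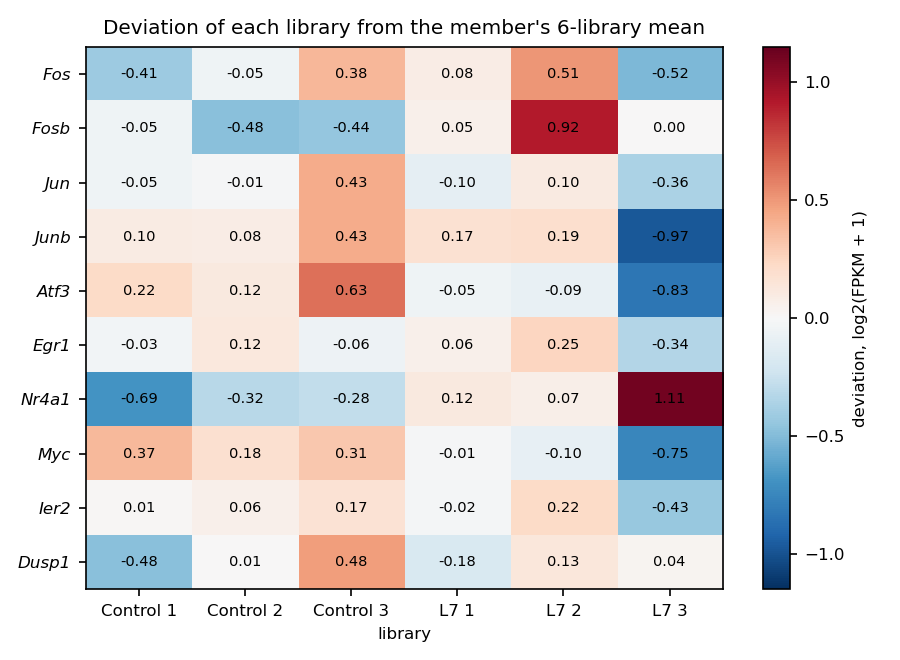
Deviation of each library (columns) from a gene's mean over the 6 libraries (rows), in log2(FPKM + 1), red above and blue below the mean, with the value printed. The column of L7 replicate 3 is blue for 7 genes and dark red for Nr4a1 (1.11), and Control replicate 3 is red for 7.

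Profiles over the 6 libraries were compared by the root mean square of the difference between deviations, in log2 units. This was done on the deposited scale only, with L7 replicate 3 included, where Nr4a1 deviated by 1.11. With 6 values per gene and 10510 candidates, close matches are easy to find. The nearest genes are therefore a description and no sign of shared regulation. Among the members, Egr1 and Ier2 were most alike (0.11), followed by Jun with Ier2 (0.13) and Atf3 with Myc (0.15). Nr4a1 was the farthest from 8 of the other 9, at 0.57 to 0.97. Among 10510 candidates (other named genes with a mean of 5 FPKM or more), the nearest to Nr4a1 was Fabp3, the fatty acid binding protein of heart and muscle (0.03), at 87.2 FPKM in Control and 168 FPKM in L7 on average. The nearest to Atf3 was Rhoh (0.04), a GTPase of blood cells, to Myc the splicing factor Srsf7 (0.03), to Junb Zfp217 (0.03), to Egr1 the SMAD repressor Ski (0.03), to Fos Igfbp5 (0.13), which binds IGFs, and to Fosb Ccn3 (0.20). Jun, Ier2 and Dusp1 were nearest to Bloc1s4 (0.04), Fam219b (0.03) and Ppt2 (0.08). For the mean profile of all 10, the nearest were Taf4, Smim24, Pqbp1, Minpp1 and Taf8, at 0.04 to 0.05.

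The other genes of the early response were read from 9 lists, of which 133 of 138 genes entered the test. None passed limma over all genes, where 0% passed. On the deposited scale 112 were lower and 21 higher, where 10476 of all genes tested were lower and 4312 higher (70.8% lower). After median of ratios scaling 89 were lower and 44 higher, where all genes were split 7459 to 7329 (50.4% lower). The list counts below are to be read against these shares. The lists were written with earlier results of these data known, so the counts are a description and no unbiased comparison. Groups did not overlap with L7 lower in 37 of 133 on the deposited scale (13.7% of all genes) and 28 of 133 after scaling (8.87%), and with L7 higher in 4 and 7 (5.49% and 9.41%).

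The other AP-1 subunits had a negative log2 difference in 12 of 12 on the deposited scale (70.8% of all genes) and after scaling (50.4%). After scaling without L7 replicate 3 it was negative in 11 of 12 (51.0%). Their median log2 difference was -0.39, and -0.19 after scaling without that library. Every L7 library lay below Control in 5 of 12 (13.7% of all genes), and in 4 of 12 after scaling (8.87%), and the rest overlapped. Batf2, an AP-1 relative induced by interferon, was at 41.2, 23.3 and 53.2 FPKM in Control and at 14.4, 22.3 and 13.8 FPKM in L7, and its log2 difference was -1.13 ± 0.32 (SE; limma adjusted p 0.580). Maff, a small MAF partner, was at 8.88, 7.46 and 8.58 against 5.69, 6.46 and 3.34 FPKM. Mafg, the most abundant of the list, was at 83.4 ± 1.119 against 70.9 ± 14.1 FPKM (SD, n = 3 each) and its groups overlapped after scaling.

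The list of other early response transcription factors also holds early genes of other kinds, such as Ier3 and Arc. In this list 14 of 18 tested genes were lower, near the 70.8% of all genes, with a median of -0.26. After scaling 11 of 18 were lower (50.4% of all genes) with a median of -0.12, and the median was also -0.12 on the deposited scale without L7 replicate 3. After scaling without that library, 13 of 18 were lower (51.0% of all genes), with a median of -0.09. Csrnp1, an AXIN1-induced factor, was at 28.5, 23.5 and 34.2 FPKM in Control and at 17.0, 20.9 and 7.67 FPKM in L7. Ier3, which protects cells from death signals, was at 39.9, 28.7 and 38.0 against 23.2, 26.6 and 10.7 FPKM. In both every L7 library lay below Control, also after scaling, and the limma adjusted p was 0.580. Id3, the most abundant, had overlapping groups at 95.2 ± 11.9 and 74.3 ± 17.9 FPKM (SD, n = 3 each). Egr4, Npas4 and Arc, best known from neurons, were below the level for testing.

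Feedback inhibitors had 20 of 25 genes lower (70.8% of all genes) and a median of -0.25. After scaling 15 of 25 were lower (50.4% of all genes), and the median was -0.10 on the deposited scale without L7 replicate 3. After scaling without that library, 16 of 25 were lower (51.0% of all genes), with a median of -0.07. Gadd45b, a stress sensor, was at 86.6, 88.9 and 86.5 FPKM in Control and at 70.1, 76.5 and 48.9 FPKM in L7, and Plk2 was at 22.5 ± 0.726 against 16.7 ± 5.04 FPKM (SD, n = 3 each). These were the 2 of 25 genes with every L7 library below Control, on the deposited scale (13.7% of all genes) and after scaling (8.87%). Dusp10, a phosphatase of stress kinases related to Dusp1, was at 17.3, 18.2 and 19.1 against 19.5, 20.0 and 31.9 FPKM. It was the 1 gene of 25 without overlap in the higher direction on the deposited scale (5.49% of all genes). After scaling there were 2 of 25 (9.41% of all genes), with Zfp36l1, which promotes mRNA decay, as the other (named after its values were seen). These counts do not exceed the shares of all genes. Socs3, an inhibitor of cytokine signalling and the most abundant, was at 186 ± 34.1 against 134 ± 65.8 FPKM (SD, n = 3 each) with overlap.

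Secreted and signalling products had the largest median of the 9 lists, -0.67, with 16 of 17 tested genes lower (70.8% of all genes). It was -0.26 after scaling without L7 replicate 3, with 14 of 17 lower (51.0% of all genes). The 6 neutrophil markers, none at 0 in any library, had a summed FPKM of 160 to 265 in Control and of 294, 151 and 50.5 in L7, lowest in L7 replicate 3. Their 4 tested genes had a median of -0.69, and of -0.06 after scaling without that library. Among these, Retnlg was not lower (0.0094 on the deposited scale) and was highest in L7 replicate 3, at 2.87 FPKM. Ly6g, with 1 read in Control replicate 1 and in L7 replicate 3, and Mpo were below the level for testing. The part of the neutrophil markers in the list's values was not tested. Il6, a cytokine of injury, was at 10.3, 5.90 and 6.84 FPKM in Control and at 4.49, 3.07 and 1.07 FPKM in L7. Ccn2, a matrix protein also called CTGF, was at 29.6, 27.7 and 24.8 against 13.4, 20.5 and 8.93 FPKM. The log2 differences were -1.24 ± 0.37 (SE) for Il6 and -0.96 ± 0.27 (SE) for Ccn2, both with a limma adjusted p of 0.580. Ccl2, a monocyte attractant and the most abundant, was at 183 ± 41.6 against 84.2 ± 55.8 FPKM (SD, n = 3 each) with overlapping groups. Sgk1, a kinase induced by glucocorticoids, went the other way, at 59.8, 67.0 and 72.03 FPKM in Control and 85.8, 76.6 and 110 FPKM in L7, with no overlap on either scale. Its log2 difference was 0.44 ± 0.18 (SE; limma adjusted p 0.580).

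Partners and targets of the members were compared in the same way. The Myc dimer network had 7 of 10 tested genes lower, near the 70.8% of all genes, and a median of -0.20. The median was -0.05 after scaling, and 0.09 after scaling without L7 replicate 3, where 6 of 10 were higher. Max, the obligate partner of Myc, was at 120, 106 and 137 FPKM in Control and at 96.0, 93.7 and 59.7 FPKM in L7. Mxd1, which competes with Myc for Max, was at 59.8, 55.0 and 75.2 against 53.8, 36.2 and 15.7 FPKM. Both lay below Control in every L7 library, and the related Mxi1 lay above, at 5.15 ± 0.152 against 5.83 ± 0.215 FPKM (SD, n = 3 each). All 14 Myc target genes of ribosome making and growth were lower on the deposited scale (median -0.41), 11 of 14 after scaling and 10 of 14 after scaling without L7 replicate 3 (median -0.12). The shares of all genes were 70.8%, 50.4% and 51.0%. Npm1, a nucleolar chaperone, was at 269 ± 46.4 against 187 ± 57.3 FPKM (SD, n = 3 each), and its groups overlapped after scaling. Nop56, of the snoRNA machinery, was at 65.7 ± 7.58 against 48.0 ± 13.0 FPKM (SD, n = 3 each).

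Stress genes around Atf3 were lower in 7 of 9, near the 70.8% of all genes, with a median of -0.34. After scaling 6 of 9 were lower (50.4% of all genes), with a median of -0.17. After scaling without L7 replicate 3, 8 of 9 were lower (51.0% of all genes), with a median of -0.13. Atf4, which switches Atf3 on in amino acid stress, was at 110, 97.8 and 107 FPKM in Control and at 83.5, 89.6 and 75.0 FPKM in L7, without overlap on the deposited scale and with overlap after scaling. Nupr1 was at 38.5, 43.1 and 40.9 against 31.9, 30.2 and 26.3 FPKM, and its log2 difference was -0.46 ± 0.14 (SE; limma adjusted p 0.580). Trib3, an Atf4 target, was at 3.68 ± 0.389 against 2.39 ± 0.475 FPKM (SD, n = 3 each). Of the heat shock genes, which mark protein damage and handling, 8 of 10 were lower, near the 70.8% of all genes, with a median of -0.23. After scaling 7 of 10 were lower (50.4% of all genes), with a median of -0.08. With L7 replicate 3 also left out, 7 of 10 were lower (51.0% of all genes), with a median of -0.17. Hspb1 went the other way, at 329 ± 97.6 against 523 ± 152 FPKM (SD, n = 3 each) with overlap (named after its values were seen). Dnajb1 was at 19.3 ± 3.19 against 12.2 ± 4.00 FPKM and Hsp90aa1 at 13.3 ± 2.45 against 8.45 ± 3.08 FPKM (SD, n = 3 each), the latter with overlap after scaling, while Hspa8, the most abundant, had overlapping groups at 1504 ± 129.5 and 1292 ± 282 FPKM.

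Upstream kinases and factors followed the typical gene, with a median of -0.12 beside -0.15 for all genes, and 11 of 18 were higher after scaling. Mrtfa, the actin-sensing partner of SRF, was at 30.4, 31.9 and 33.8 FPKM in Control and at 37.2, 41.2 and 37.8 FPKM in L7, without overlap on either scale and with a log2 difference of 0.26 ± 0.13 (SE, limma adjusted p 0.580). Creb1 was at 19.0 ± 1.44 against 14.0 ± 4.42 FPKM and the ETS factor Elk3 at 36.8 ± 2.12 against 28.0 ± 7.40 FPKM (SD, n = 3 each), lower in every L7 library. Map2k2, a MAP kinase kinase and the most abundant, was at 135 ± 17.2 against 167 ± 31.1 FPKM (SD, n = 3 each) with overlap.

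**Figure D4:**
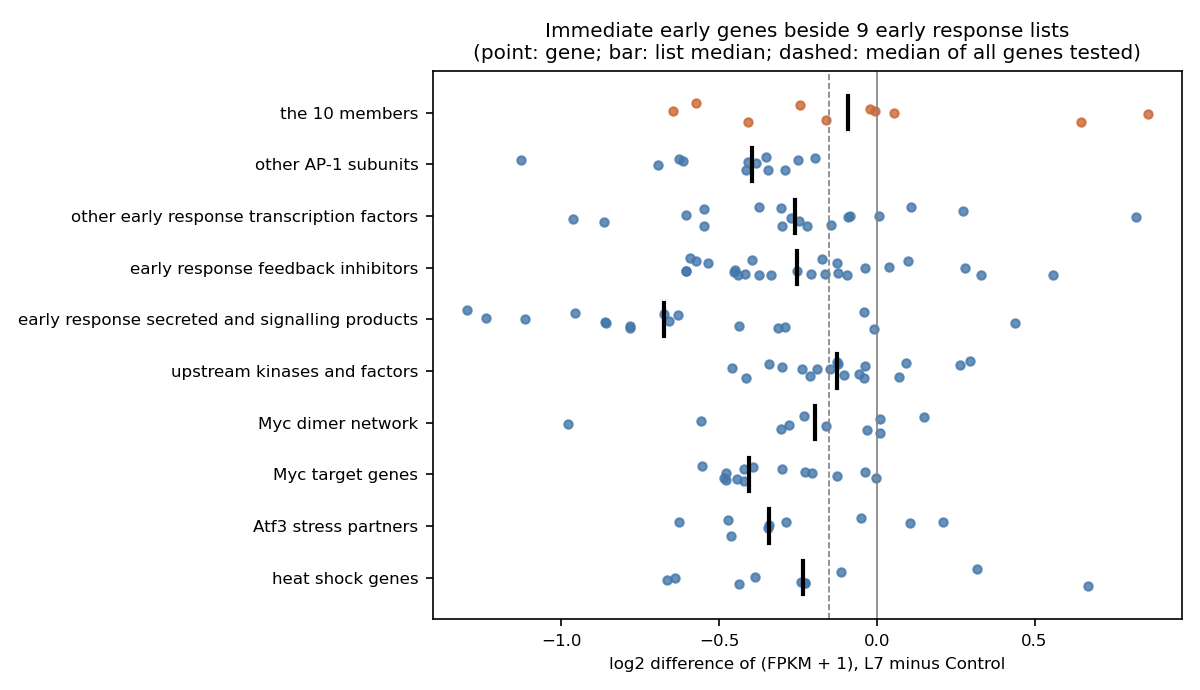
Log2 difference of FPKM + 1 (L7 minus Control) of each tested gene (points) in the 10 immediate early genes (orange) and 9 early response lists (blue), with list medians as bars, 0 as a solid line and the median of all genes tested as a dashed line. The members spread on both sides of 0, from -0.65 to 0.86, and the secreted and signalling products have the lowest median (-0.67).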

How the data were processed

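RNA sequencing of poly-A RNA from 6 muscle samples (3 Control, 3 L7) was deposited as FPKM per gene and library, made by the authors. The submitters' processing notes name, with no roles, DESeq 1.12.0, HISAT2 2.0.4, TopHat2 2.0.12, Bowtie2 2.2.3 and the build mm10. For the counter, annotation and strand setting, no source used here gives a name. The authors' deposited table of L7 against Control holds, per the file headers, group mean signals (size-factor-scaled reads), p-values before and after adjustment, and log2 fold changes. Its group means, with relative depths and size factors computed from the FPKM values, gave back the reads. All 152096 non-zero FPKM values (100%) fell within 0.05 of whole reads. These reads give the depth, 19420012 to 24663153 per library, and the voom alternative.

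Symbols were matched by Ensembl identifier for 51633 of 52369 genes (GENCODE M21, mm10), and promoters come from RefSeq. The main test was limma 3.58.1 under R 4.3.3, trended over expression, on log2(FPKM + 1). Group was the sole term, tests were two-sided, the 14788 genes whose mean reached 1 FPKM were fitted, and p-values were adjusted by Benjamini-Hochberg (threshold 0.05). The script was tested on simulated data. Groups came from the sample titles. Alternatives changed the pseudocount, the filter, the scaling, the library weights, the covariates, the test or the libraries used. Tables and figures used Python 3.11.15, pandas 2.3.3, numpy 2.4.6, scipy 1.17.1 and matplotlib 3.10.9.

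The members and lists were chosen with earlier results of these data known. Named genes are the 10 members and, in each list, genes past limma, up to 2 of largest difference in each direction among those whose groups do not overlap, and the most abundant one. The deposited enrichment tables were not used here.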

Additional observations from a re-analysis of the deposited data

How the results depend on the processing

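No member and no gene of the 9 lists passed limma in any of 16 alternatives. Over all genes, 3 passed with array weights, 1 after median of ratios scaling with L7 replicate 3 left out, and 0 to 1 when each library was left out in turn, the 1 being without L7 replicate 1. Nr4a1, Fosb, Jun, Atf3 and Myc kept their direction in every alternative run, Fosb not being tested at a mean FPKM of at least 5. The other 5 turned in some, and the cause was not tested. All alternatives reuse the same libraries, so a kept direction is not independent support. With array weights Junb was 0.011, Egr1 0.15, Ier2 0.063 and Dusp1 0.15. After median of ratios scaling Egr1 was 0.14, Ier2 0.0070 and Dusp1 0.17, and with L7 replicate 3 also left out Junb was 0.0085, Egr1 0.17, Ier2 0.048 and Dusp1 0.0062. After quantile normalization Egr1 was 0.11 and Dusp1 0.092. When each library was left out in turn, Fos ranged from -0.19 to 0.32, Egr1 from -0.15 to 0.14, Ier2 from -0.31 to 0.017 and Dusp1 from -0.25 to 0.23, and the median within-group SD of the members ranged from 0.20 (without L7 replicate 3) to 0.41. With the replicate block the median member difference was -0.09 and 0 members passed. Same-numbered libraries had correlations of 0.32, -0.07 and 0.09 between their deviations, so the numbers were not taken as pairs. Over lists and alternatives, 133 list medians stayed within their SD between libraries of the main value and 11 moved further, all towards 0 or across it.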
